A study of Homo sapiens with 3 samples.

Results

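AP-1 is a family of dimeric transcription factors of the basic leucine zipper (bZIP) class. The genes described here are its 10 members named by symbol in the RefSeq gene table of GRCh38.p14: FOS, FOSB, FOSL1, FOSL2, JUN, JUNB, JUND, ATF3, BATF and MAFF, out of 20037 protein-coding genes. For each gene, the accessible regions (ATAC peaks) that overlap it or lie within 50 kb on either side were collected, which gave 168 of the 106415 peaks of the library. A peak was placed at a gene end when it overlapped the stretch of 1 kb on either side of either end of the gene, otherwise inside the gene, otherwise in its flank.

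The cells were hCMEC/D3, immortalized cells of the human brain microvasculature, the small vessels whose endothelium forms the blood-brain barrier, untreated as far as the labels say. They were grown to confluence on rat tail collagen and used at passages 4 to 6. The series holds 2 RNA libraries and 1 ATAC library of this line, and only the ATAC library, replicate 2, was used, because the transcripts of the RNA tables are not paired with genes in the tables used here. With 1 library and no other condition, every value below is a description of that library without a replicate check, and no test was made.

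As background, FOS and JUN proteins pair through their leucine zippers. The dimers bind the AP-1 site, and JUN and ATF proteins also bind the related cyclic AMP response element (CRE). FOS, FOSB, JUN, JUNB and ATF3 are immediate early or stress-induced genes, switched on within minutes by growth factors, shear or injury through MAP kinases, without new protein synthesis. FOSL1 and FOSL2 are FOS relatives without its strong activating domain, JUND is the JUN relative with the steadiest expression, BATF lacks an activating domain and is best known in lymphocytes, and MAFF is a small MAF protein that also lacks one. In many cell types AP-1 opens or keeps open distal enhancers.

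The library had 22188172 tags after the caller kept 1 tag per position. The peaks had a median pileup of 21.57, a median length of 452 bp and a median fold over local background of 4.49. The pileup is the depth in overlapping tags that the caller lists for a peak. For broad peaks the caller lists pileup and fold as means over the region, not at a summit. Tallest, below, means the highest such pileup. Of 12 genes used as endothelial markers, 12 had a peak within 1 kb of an end, and of 12 markers of other brain and vessel cells 8 did, against 72.8% of all protein-coding genes. The tallest end peaks of the endothelial list ran from 10.98 tags at ERG to 75.02 at EGFL7, with a median of 40.2, and included 62.65 at CDH5 and 13.15 at VWF. Those of the other list ran from 9.31 at EPCAM to 56.84 at the pericyte marker RGS5, with a median of 25.88, and the astrocyte marker GFAP had 21.34. AQP4, MOG, AIF1 and LYVE1 had no end peak. The ranges of the lists overlapped, and both medians were lower than the 45.7 tags over other protein-coding genes with an end peak. The median fold was 3.56 for the endothelial list and 3.57 for the other list.

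The stretches just before a listed start of 6 members are shown because the accessibility described next separates these listed starts. The first 4 stretches lay in a peak and those of ATF3 and BATF did not. For ATF3 the stretch is that of the outer listed start. Whether a peak inside ATF3 covers a start that is not listed was not checked. The stretches are RefSeq sequences of GRCh38.p14, 250 bases up to the base before the start, read 5′ to 3′ on the strand of the gene. Capitals mark 3 elements looked for on both strands: TGACG, the core of a CRE (within the whole CRE TGACGTCA in MAFF), TGACATCA, a variant that JUN and ATF proteins are known to bind in the JUN promoter, and TATAAA, the TATA box. The positions are chr14:75278578-75278827 (plus strand) for FOS, chr19:45467746-45467995 (plus) for FOSB, chr1:58784048-58784297 (minus) for JUN, chr22:38201744-38201993 (plus) for MAFF, chr1:212565157-212565406 (plus) for ATF3 and chr14:75522219-75522468 (plus) for BATF.
FOS: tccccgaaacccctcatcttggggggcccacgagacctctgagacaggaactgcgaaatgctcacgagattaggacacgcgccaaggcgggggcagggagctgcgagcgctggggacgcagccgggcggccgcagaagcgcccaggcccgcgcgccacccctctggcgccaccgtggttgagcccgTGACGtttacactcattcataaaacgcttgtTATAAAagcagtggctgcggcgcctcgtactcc
FOSB: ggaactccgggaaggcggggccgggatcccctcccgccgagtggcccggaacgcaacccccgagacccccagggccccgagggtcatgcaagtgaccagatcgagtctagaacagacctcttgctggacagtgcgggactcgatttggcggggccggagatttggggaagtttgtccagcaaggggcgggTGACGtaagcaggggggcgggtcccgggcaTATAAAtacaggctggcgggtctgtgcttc
JUN: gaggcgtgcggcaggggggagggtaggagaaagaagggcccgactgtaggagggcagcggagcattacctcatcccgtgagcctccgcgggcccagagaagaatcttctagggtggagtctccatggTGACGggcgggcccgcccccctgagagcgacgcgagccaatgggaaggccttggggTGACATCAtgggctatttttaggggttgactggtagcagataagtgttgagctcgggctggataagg
MAFF: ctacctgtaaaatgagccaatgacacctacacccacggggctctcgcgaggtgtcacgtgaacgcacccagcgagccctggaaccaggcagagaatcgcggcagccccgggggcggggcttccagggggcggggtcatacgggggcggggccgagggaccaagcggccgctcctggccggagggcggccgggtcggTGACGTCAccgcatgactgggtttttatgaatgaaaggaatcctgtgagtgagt
ATF3: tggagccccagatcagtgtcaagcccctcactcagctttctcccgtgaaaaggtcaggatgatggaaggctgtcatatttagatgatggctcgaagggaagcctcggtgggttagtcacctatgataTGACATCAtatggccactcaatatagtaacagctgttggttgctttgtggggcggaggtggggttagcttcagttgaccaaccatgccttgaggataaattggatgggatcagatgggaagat
BATF: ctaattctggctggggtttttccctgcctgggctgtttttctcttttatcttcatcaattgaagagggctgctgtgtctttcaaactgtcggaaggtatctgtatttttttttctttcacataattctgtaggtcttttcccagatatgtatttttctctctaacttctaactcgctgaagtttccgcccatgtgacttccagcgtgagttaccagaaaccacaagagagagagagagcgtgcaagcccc

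A peak at a gene end was found for 8 of the 10 genes, against 72.8% of all protein-coding genes and 68.6% of the 3691 genes of similar length to any of the 10, so this count alone was close to the background. Similar length means, throughout, the 500 protein-coding genes nearest in log length to a member. The genes with an end peak were the 4 FOS genes, the 3 JUN genes and MAFF. ATF3 and BATF had none within 1 kb of either end. Several end peaks at 1 gene were more frequent: 6 of the 10 genes had at least 2, compared with 17.9% of protein-coding genes and 18.4% of those of similar length.

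A start site was listed for 9 of the genes, all but FOSL1. A peak lay within 1 kb of a listed start in 7 of these 9, compared with 74.0% of protein-coding genes with a listed start. The start base itself lay in a peak in the same 7 genes, compared with 68.7% of protein-coding genes with a listed start. JUN, the founding member of the JUN family, had the tallest of these start peaks, 91.71 tags over 1618 bp (chr1:58783847-58785464). The peak extends upstream into the first part of JUN-DT, a long noncoding RNA gene that runs the other way. FOSL2 followed with 87.30 tags over 1504 bp (chr2:28391617-28393120).

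The JUN relatives JUNB and JUND came next, with 68.56 tags over 592 bp (chr19:12791265-12791856) and 67.69 tags over 1493 bp (chr19:18281051-18282543). The JUNB peak also overlaps the protein-coding gene HOOK2 and lies within 1 kb of an end of it. The JUND peak also overlaps the microRNA gene MIR3188. MAFF had the widest start peak, 1934 bp with 56.26 tags (chr22:38201532-38203465), and it spans both starts listed for the gene. The lowest were those of FOS, with 46.25 tags over 1332 bp (chr14:75278362-75279693), and FOSB, with 36.65 tags over 488 bp (chr19:45467576-45468063).

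If a pileup is read as a count of tags, its 95% Wilson interval ran from 74.8 to 112 at JUN, from 54.1 to 86.8 at JUNB, from 34.7 to 61.6 at FOS and from 26.6 to 50.6 at FOSB. These intervals are a rough guide only, since the pileup is a mean depth over the peak and not a count of its tags. They cover no spread between cultures, and the order of the genes was not tested with them. Over the other 10879 protein-coding genes with a peak on a start, the median was 48.16 tags and 1116 bp, so the start peaks of FOS and FOSB were lower than the median and the other 5 higher.

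**Figure D1:**
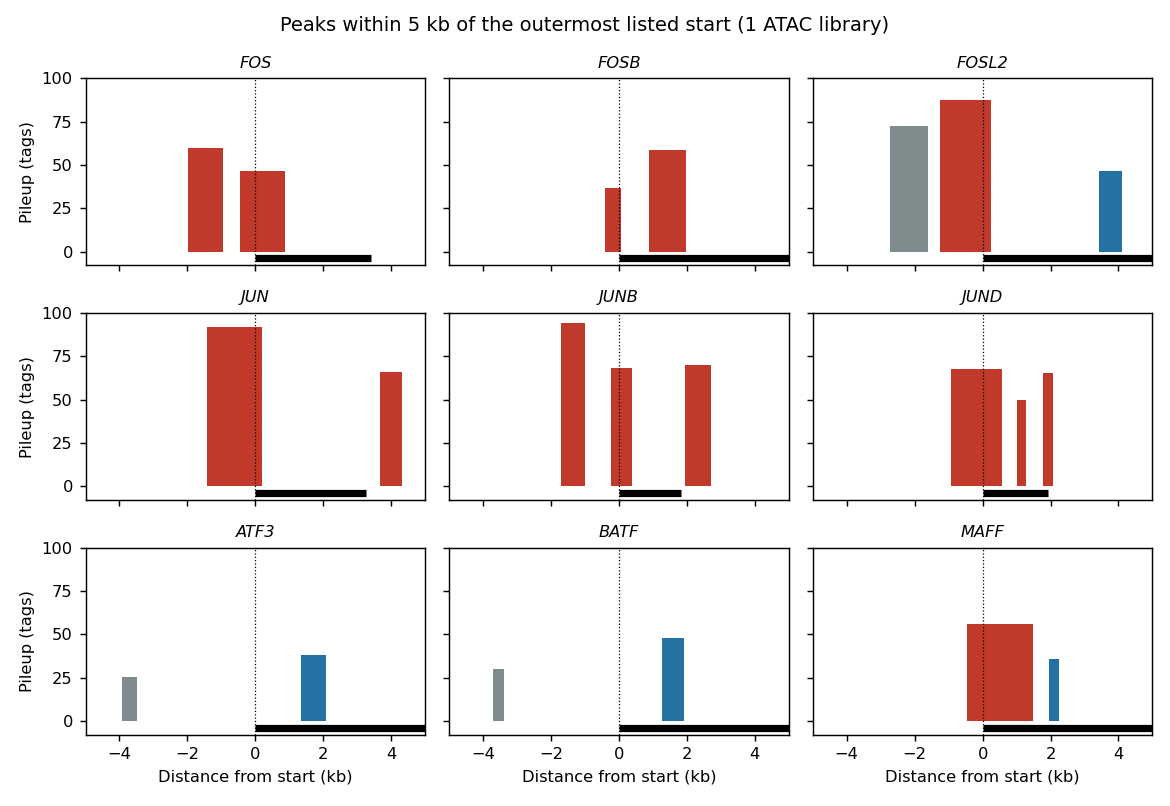
Peaks within 5 kb of the outermost listed start of 9 AP-1 genes, with the distance from the start in kb on the x axis (downstream to the right) and the pileup in tags on the y axis. Red bars are peaks within 1 kb of a gene end, blue bars peaks inside the gene, grey bars flank peaks, and the black line is the gene up to 5 kb; ATF3 and BATF have no bar over the dotted start line.

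At several genes the tallest end peak did not cover the start. At FOS it lay upstream, with 59.81 tags over 1029 bp and its nearer edge 960 bp from the start (chr14:75276840-75277868). At JUNB it also lay upstream, with 94.54 tags over 706 bp and an edge 994 bp from the start (chr19:12789787-12790492), within the neighbouring gene HOOK2. At FOSB it lay 893 bp downstream of the start, inside the gene, with 58.41 tags over 1084 bp (chr19:45468889-45469972).

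The 3 JUN genes, which are short, carried peaks at both ends. JUN had a further peak of 66.25 tags beyond its far end (chr1:58779718-58780385), and JUNB one of 70.30 tags (chr19:12793417-12794184). JUND, 1929 bp long, had 3 end peaks, of 65.16, 49.66 and 67.69 tags, and 51.3% of the gene lay in peaks, compared with a median of 3.99% over genes of its length. For JUNB and JUND the end stretches join, so no peak could be placed inside. FOSL1 had 78.22 and 70.68 tags at the lower-coordinate end, both within 1 kb of CCDC85B too, and 67.44 tags over 1638 bp at the other end (chr11:65899187-65900824).

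ATF3 and BATF stood apart in position. ATF3, a stress-induced repressor or activator of the ATF family, is the longest of the 10 genes at 55371 bp and had 5 peaks inside. The nearest to the outer start began 1340 bp downstream of it, with 37.84 tags and a fold of 7.97 (chr1:212566747-212567490). The tallest, with 74.27 tags and a fold of 6.85, lay at chr1:212595671-212596709. The widest, with 67.47 tags over 1896 bp, lay at chr1:212608016-212609911, 5107 bp from the nearest listed start. ATF3 is known to be transcribed from alternative promoters, and only the 2 listed starts were used. Whether an inside peak, such as the widest, covers another start of ATF3 was not checked. The values given here for ATF3 promoters therefore hold for the 2 listed starts only.

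BATF likewise had 5 inside peaks and none at its ends. The first began 1253 bp downstream of the start, with 47.73 tags and a fold of 7.34 (chr14:75523722-75524375), and the tallest had 82.82 tags and a fold of 7.17 (chr14:75535729-75536489), in the middle part of the gene. The remaining inside peaks of BATF had 47.10, 11.30 and 9.21 tags. Among all protein-coding genes, 10.9% had no end peak but at least 1 inside. The limit of 1 kb decides this placement, with the upstream peaks of FOS and JUNB just within it and the first inside peaks of BATF and ATF3 just beyond it. With stretches of 2500 bp all 10 genes had an end peak, as did 79.2% of protein-coding genes. An absent peak means that accessibility was not detectable at this depth and setting, where the lowest pileup called was 8.0 tags.

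**Figure D2:**
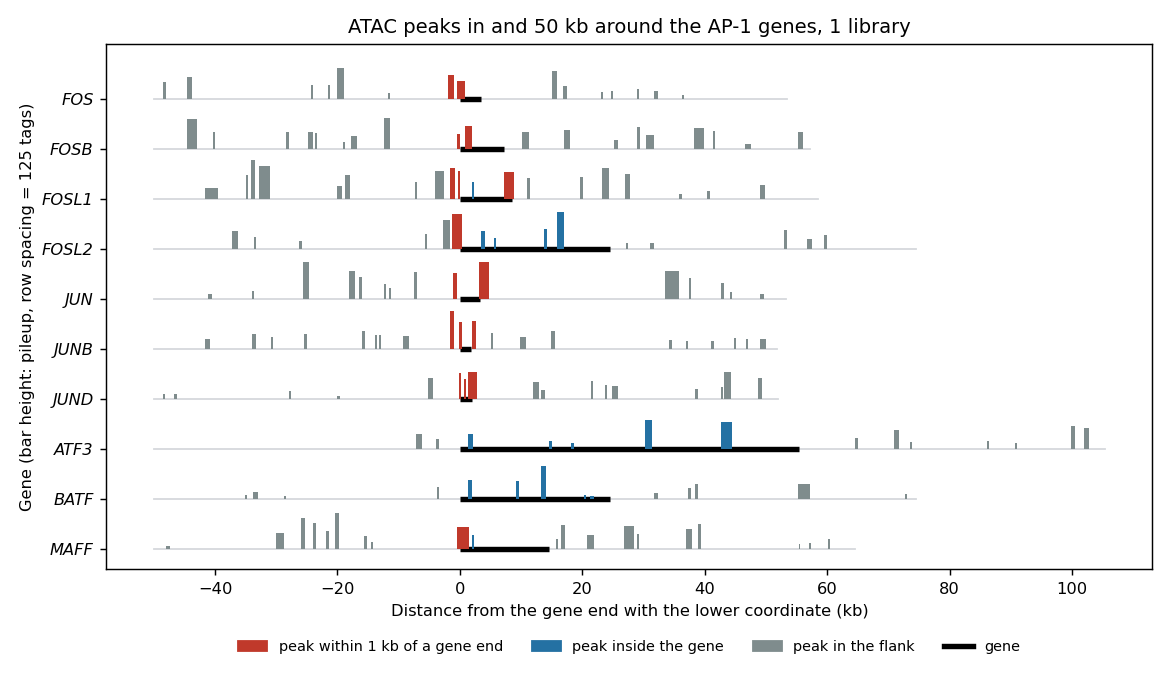
Every peak in and within 50 kb of the 10 genes, with the distance in kb from the gene end of lower coordinate on the x axis and 1 row per gene on the y axis, where bar height is the pileup and the black line the gene. Peaks at ends (red) cluster on FOSL1, JUNB and JUND, with 3 each, while ATF3 and BATF carry only inside (blue) and flank (grey) peaks.

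All 10 loci were rich in peaks. The genes with their flanks held from 14 peaks at ATF3 and BATF to 20 at JUNB and MAFF, with a median of 16, compared with a median of 9 over all other protein-coding genes and 8 over those of similar length. FOS, FOSL2 and JUN had 15 each, JUND 17, and FOSB and FOSL1 19 each. Among the 500 genes nearest in length, the members stood between the 78.1th percentile (ATF3) and the 99.5th (FOSL1), with a median of 95.2. Peaks covered from 6.02% of the window at ATF3 to 14.9% at FOSL1, against a median of 4.53% over genes of similar length.

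Some of these peaks lay at the ends of neighbouring genes. FOSL1 has 10 other protein-coding genes in its window and JUNB 8, and 9 and 7 of their flank peaks lay at an end of such a gene. FOS, FOSL2 and JUN have no protein-coding neighbour within 50 kb, and still had 15 peaks each, compared with a median of 5 over the 2254 other genes without such a neighbour. Among genes with a like number of neighbours, a comparison chosen after the data were seen, the median percentile of the 10 was 87.1, lower than by length. Leaving out every flank peak at an end of another protein-coding gene kept 141 of the 168 peaks.

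**Figure D3:**
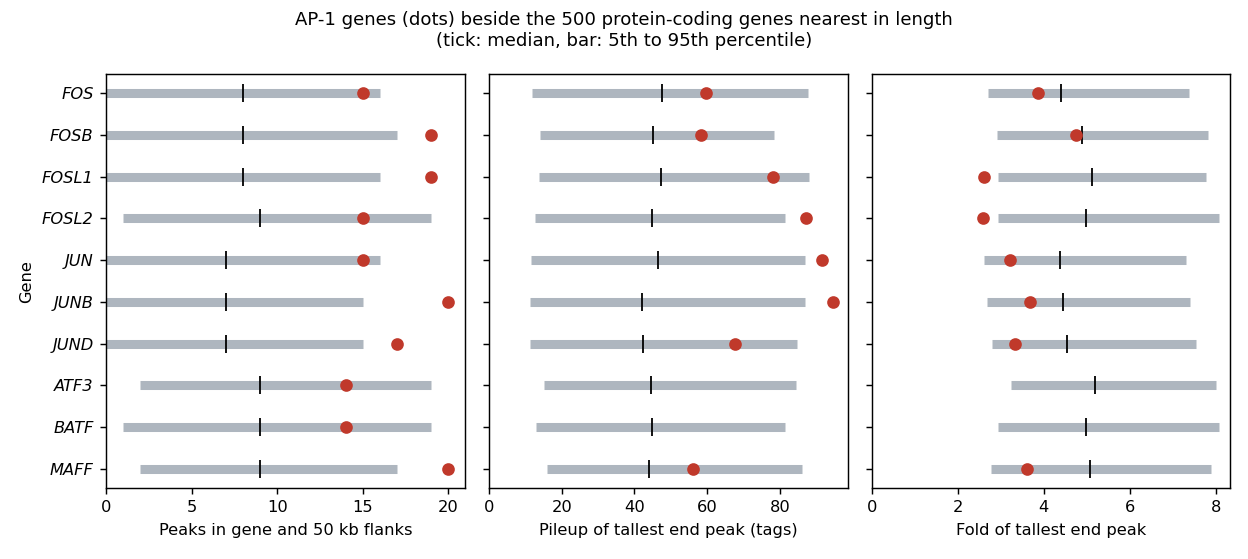
For each of the 10 genes (y axis), the number of peaks in the gene and its flanks, the pileup in tags of the tallest end peak and its fold (x axes), as red dots, beside the 500 protein-coding genes nearest in length, drawn as the median (black tick) and the 5th to 95th percentile (grey bar). All 10 dots exceed the median number of peaks, the 8 end peaks exceed the median pileup, and the same 8 fall below the median fold.

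By position, the 168 peaks comprised 17 at ends, 16 inside and 135 in flanks. The median pileup was 67.44 tags for the end peaks, 44.3 for the inside peaks and 35.83 for the flank peaks. Over all other protein-coding genes the ends were also highest, with 41.4 tags, but the flanks, with 25.7, exceeded the inside peaks, with 20.5. Of the 16 inside peaks of the members, ATF3 and BATF had 5 each, FOSL2 4, and FOSL1 and MAFF 1 each. The inside median of the members therefore mostly describes ATF3, BATF and FOSL2, and not the 10 genes as a set. Taking the tallest end peak of each gene, the 8 members had a median pileup of 73.0 tags and a median length of 1289 bp, compared with 45.7 tags and 1058 bp over the 14587 other protein-coding genes with an end peak. By pileup they ranked from the 71.7th percentile (MAFF) to the 98.0th (FOSL2) among genes of similar length.

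The fold of the same end peaks was low. The fold divides the pileup by the background around the peak, which MACS takes from the same library within 10000 bp, after adding 1 to each. The tallest end peaks of the 8 members had a median fold of 3.47, compared with 5.02 over the end peaks of other protein-coding genes. The highest was 4.74 at FOSB. FOSL2 had 2.59, at the 1.22th percentile of genes of similar length, and FOSL1 2.61, at the 2.64th. The FOSL1 value is that of a peak 833 bp outside the gene, which overlaps CCDC85B. The end peaks that overlap FOSL1 itself had folds of 2.32 and 4.09. The local background was computed back from pileup and fold, and is approximate because both are listed as means. Its median was 22.3 tags in the members and 7.87 tags in the other genes.

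This background was 33.1 tags at FOSL2, 29.4 at FOSL1 (for the peak that overlaps CCDC85B), 27.7 at JUN, 19.7 at JUND and 11.5 at FOSB. Within 10 kb of the gene there were 9 peaks at FOSL2, 7 at FOSL1 and 6 at JUNB, compared with medians of 3, 3 and 2 over genes of similar length, but 2 at FOS, which equals its median. The part of these nearby peaks in the low folds was not tested. With peaks of at least 4-fold only, an end peak was left at 2 members, FOSB and FOSL1, compared with 56.0% of protein-coding genes. None of the 7 start peaks reached 4-fold, against 77.7% of those of other genes.

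**Figure D4:**
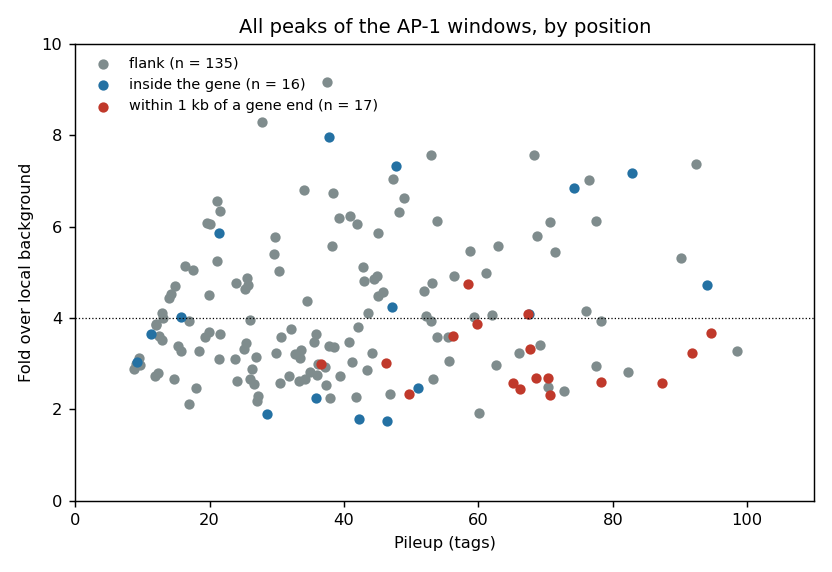
The 168 peaks of the AP-1 windows, with the pileup in tags on the x axis and the fold over local background on the y axis, coloured by position; the dotted line marks 4-fold. The 17 end peaks (red) lie at high pileup and mostly under the line, with 2 above it, while 60 of the 135 flank peaks (grey) and 9 of the 16 inside peaks (blue) lie above it.

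In each window the peak of highest fold lay inside the member or in its flank, not at an end of the member itself. At FOSB it had a fold of 7.04 and lay within 1 kb of an end of RTN2. At JUND and FOSL2 it lay within 1 kb of an end of LOC124904654 and LOC105374382. In the other windows it lay at no end of another annotated gene. How often the peak of highest fold lies away from the ends at other genes was not counted. Over all other protein-coding genes, the median of the highest fold in the window was 7.40. That of their tallest end peak was 5.02, so this placement need not be particular to the members. The highest fold of the members had a median of 7.19 and a median percentile of 50.1 among genes of similar length. Of the flank peaks, 44.4% reached 4-fold, compared with 11.8% of the end peaks, and both shares were under those of other protein-coding genes, 60.0% in flanks and 67.0% at ends. Downstream of JUN, a peak of 68.34 tags with a fold of 7.57 lay 6949 bp beyond the gene (chr1:58773220-58773842), and one of 92.32 tags with a fold of 7.37 lay 24708 bp beyond it (chr1:58755165-58756083). The latter was close in pileup to the JUN start peak, and its fold stood at the 91.5th percentile of all peaks of the list.

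Upstream of FOS, the tallest flank peak had 77.55 tags and a fold of 6.12 and lay 19015 bp from the gene (chr14:75258764-75259813), away from the ends of any annotated gene. Upstream of FOSB, a peak of 76.42 tags and a fold of 7.03 lay 11473 bp away (chr19:45455652-45456523), also between genes. The highest fold of all 168 peaks was 9.17, for a peak of 37.46 tags within HOOK2, 24924 bp upstream of JUNB (chr19:12765998-12766562). Which gene, if any, such a distal region acts on cannot be told from these data.

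FOSL2 had its tallest peak inside the gene, with 94.04 tags over 1016 bp and a fold of 4.72 (chr2:28408781-28409796), 15923 bp downstream of the start. Its other inside peaks had folds of 1.74, 1.90 and 2.48. For MAFF the tallest peak, of 90.20 tags, lay at an end of the neighbour PLA2G6 (chr22:38181609-38182170), and no peak of its window reached 6-fold. In the window of ATF3 12 of 14 peaks reached 4-fold, compared with 4 of 19 at FOSL1, beside 60.4% of inside and 60.0% of flank peaks of other protein-coding genes.

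The sequences before the listed starts differed in composition as the peaks did. Starts of ATF3 that are not listed were not examined. Promoter windows, here 250 bases before to 50 bases after a listed start, numbered 11 for the 9 genes, and 8 of them overlapped a peak, compared with 64.8% of the 22199 windows of protein-coding genes. In the 250 bases before the start, the 8 windows in a peak had from 14 CpG dinucleotides at JUN to 40 at JUND, and the 3 windows outside peaks had 4 and 0 at ATF3 and 5 at BATF. Over all protein-coding windows, the median was 21 CpG for those in a peak and 4 for those outside. The share of protein-coding windows in a peak was 15.9% under 5 CpG, where both ATF3 windows fall, and 40.5% from 5 to 9, where BATF falls. It was 79.3% from 10 to 19 (JUN and FOSB), 89.9% from 20 to 29 (FOS, FOSL2, JUNB and MAFF) and 89.4% from 30 (JUND).

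**Figure D5:**
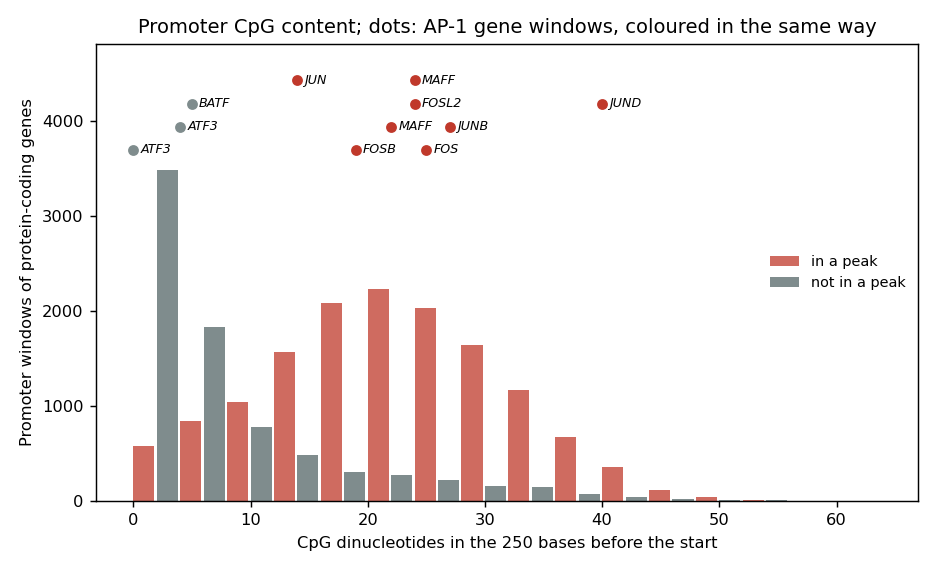
Number of protein-coding promoter windows (y axis) by the number of CpG dinucleotides in the 250 bases before the start (x axis, in groups of 4), for windows in a peak (red) and not in a peak (grey). The dots above show the 11 windows of AP-1 genes at their own CpG number, at no set height; the 3 grey dots of ATF3 and BATF lie at 0 to 5 and the 8 red dots at 14 to 40.

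The short elements were then counted in the same 250 bases. The AP-1 site TGACTCA, on either strand, was in 0 of the 11 windows, compared with 4.20% of all 35116 windows of the table. The sequence TGACG, on either strand, was in 7 of 11, compared with 21.2% of all windows and 29.5% of protein-coding windows in a peak. It was found in 1 window of each of the 7 genes whose start lay in a peak, and not in the listed windows of ATF3 or BATF. At FOS it lay from 64 to 60 bases before the start, at FOSB from 60 to 56, and at MAFF from 54 to 50 as part of the whole CRE TGACGTCA.

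The whole CRE was in 2 of 11 windows, those of JUND and MAFF, compared with 1.65% of all windows. TGACATCA was in the windows of JUN, from 67 to 60 bases before the start, and of the outer start of ATF3, compared with 2.37% of all windows. The TATA box TATAAA was in 4 of 11 windows, compared with 10.7% of all windows and 5.09% of protein-coding windows in a peak. It stood from 33 to 28 bases before the start at FOS, from 30 to 25 at FOSB and from 31 to 26 at JUNB. The remaining match lay from 230 to 225 bases before the inner start of ATF3, in a window outside peaks. A CArG box, the site of serum response factor, was in none of the 11 windows and in 1.16% of all windows. Only the stretch just before each start was searched, so a CArG box further upstream would be missed. At so low a share, its absence from 11 windows was likely anyway and does not show that these genes lack such a site. The matches given above describe letters and show no binding.

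Other genes of the pathway were examined as lists, beside an end peak in 72.8% of all protein-coding genes and medians of 45.7 tags and 5.02-fold over the other genes. Of 22 partners and other bZIP genes, 20 had an end peak, with a median pileup of 43.9 tags, close to that of all genes, and a median fold of 4.56. The tallest was at ATF7 with 92.28 tags and the lowest at CREB5 with 12.03, and MAF had no peak in the gene or its flanks. Of 19 upstream kinases and serum response genes, 18 had an end peak, with a median of 50.1 tags and 4.85-fold. MAPK7, which encodes ERK5, had the tallest with 114.86 tags, and the one without an end peak was MRTFB, which had 20 peaks inside.

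The 21 other immediate early genes, such as EGR1 and IER2, had, of the 4 lists, the medians nearest to those of the AP-1 genes in pileup and in number of peaks. All 21 had an end peak, against 72.8% of protein-coding genes, and 12 had at least 2, against 17.9%. The median pileup was 66.9 tags with a median fold of 3.34 and a median of 15 peaks in the gene and flanks. DUSP1, a phosphatase that switches off MAP kinases, had the tallest with 95.51 tags, and EGR3 the lowest with 34.35. Of 18 genes with known AP-1 sites, 15 had an end peak, with a median of 54.9 tags and 3.42-fold. CCN2 had the tallest with 103.98 tags, the collagenase gene MMP1 the lowest with 15.62, and MMP3 had none.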

How the data were processed

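In ATAC-seq, the transposase Tn5 inserts adapters where chromatin is open, so that reads pile up there. The authors called broad peaks with MACS 2.2.7.1 on 1 library without a control, per the file headers, with a shift of -100 bp and an extension of 200 bp for each tag, q limits of 0.05 and 0.1, and an effective genome size of 1870000000 bp, the caller's mouse preset. That size sets the lowest background, 2.37 tags, and with it the highest possible folds. The deposited list gives each peak's pileup signal, its fold as a ratio over local background, and −log10 p-value and −log10 q-value, all the authors' values, used only to describe, rank and filter peaks within this list. Per the submitters' processing notes, Bowtie2, SAMtools 1.13 and Picard were used and GRCh38 is the human build listed. With peaks left in place 70.9% of listed starts had a peak within 1 kb, and 13.9% to 16.0% when all peaks were moved by 5000 or 10000 bp.

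Peaks were placed relative to genes of RefSeq GRCh38.p14 with Python 3.11 and pandas 2.3.3, counting any overlap from 1 bp, and the placement was tested on simulated data. A member's percentile is its rank among the 500 protein-coding genes nearest in length, ties counted as the middle. The 10 members, the gene lists and the settings were chosen with earlier results of these data known. All 10 members are named, and of each list genes with the tallest or lowest end peak or the first without one. EGR1 and IER2 were named besides as examples of their list. Of the marker lists, CDH5, VWF and GFAP were also named, by no set rule, as were MOG, AIF1 and LYVE1, which had no end peak. The RNA tables were not used here, since their transcripts are not paired with genes.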

Additional observations from a re-analysis of the deposited data

How the results depend on the processing

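Of 44 alternative values, 13 moved from the reported one and 31 did not. Counts and lengths moved if they differed by over 1.5-fold, pileups and percentiles if they fell outside its 95% Wilson interval. For pileups, which are mean depths and not counts, that interval is a rough limit only. For percentiles it treats the median rank of the members as a share of 500 genes. Neither interval measures the spread of a median over the members, so moved or not is only a working label. With peaks of at least 4-fold only, 2 members had an end peak, the windows held 71 peaks with a median of 7, and the median percentile was 82.7. Flanks of 25 kb gave 105 peaks, a median of 10 and the 97.4th percentile, and flanks of 100 kb gave 275, 26 and the 89.2th, as shorter or longer windows must change the counts. The percentile was 85.0 against all protein-coding genes, 97.45 without flank peaks at ends of other protein-coding genes and 87.1 among genes with a like number of neighbours, the last chosen after seeing the data. The median percentile was over 80 in each setting run. The cause of each move was otherwise not tested. No paired analysis was possible because the only library used has no second group. Depth limits what an absent peak means, and with 1 library no spread between cultures is known.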
